A study of Mus musculus with 12 samples.

Results

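Circular RNAs (circRNAs) of Fmo5 and Cyp2j5, a pair of liver genes for microsomal monooxygenases, were followed across 12 mouse liver libraries. A circRNA forms when a splice donor is joined to an acceptor that lies upstream of it, and reads across the resulting back-splice junction measure it. The members were the junctions of the table that lay inside either gene with at least 1 end on an annotated exon boundary of it, and they numbered 14 of 16445, with 5 in Fmo5 and 9 in Cyp2j5. Both genes were chosen by their measured difference between PZH and Control libraries: an Fmo5 junction stood among those with the smallest p without passing, and a Cyp2j5 junction was above 0 in fewer PZH than Control libraries. The PZH and Control values of the members are therefore a description and support nothing.

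The 6 PZH mice were dosed daily between weeks 2 and 8 with the Chinese medicine Pien Tze Huang (PZH, 25 mg/ml in water) on top of carbon tetrachloride (CCl4), a toxin that scars the liver. The 6 Control mice had the toxin without PZH. All 12 carried the strain label C57BL/8 and were injected 2 times a week with 10% CCl4, 10 µl for every 10 g of weight. Livers were taken in week 8, and livers without CCl4 were not analysed here. Values are in SRPBM, the authors' normalized back-splice signal. The unit is used in this field for junction reads scaled to the reads of a library, with no gene length, but the formula behind the table is not given in the sources used here.

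Both proteins sit in the membrane of the endoplasmic reticulum and put an oxygen atom from molecular oxygen onto a substrate. FMO5 belongs to the flavin-containing monooxygenases, which hold FAD and draw electrons directly from NADPH. Most of them oxygenate nitrogen or sulphur, whereas human FMO5 is known for inserting oxygen next to a carbonyl group (a Baeyer-Villiger reaction). CYP2J5 is a cytochrome P450 of mouse liver and kidney that holds haem, takes its electrons from the reductase Por and turns arachidonic acid into epoxides.

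No junction of either gene used exon 1 or exon 9, the first and last exons. A back-splice needs an acceptor at its start and a donor at its end, which such exons lack. Of the 15737 junctions with both ends on exon boundaries of a gene, 15677 had an intron on both sides, so this is no trait of these genes. Fmo5 is found at chr3:97628804-97655282 (GRCm38, plus strand, ENSMUSG00000028088.14) and has 9 exons in the GENCODE M21 transcript used here. Of its 5 junctions, 4 began at exon 3, and these carried 98.1% of the gene's circular signal summed over the libraries. They ended at exons 4, 6, 7 and 8. Their junction sequences are given here 5′ to 3′ from the GENCODE M21 transcript. The end of the last exon is in lower case and the shared start of exon 3 in capitals.
Fmo5 exons 3 to 4: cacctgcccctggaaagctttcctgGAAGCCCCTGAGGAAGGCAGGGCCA
Fmo5 exons 3 to 6: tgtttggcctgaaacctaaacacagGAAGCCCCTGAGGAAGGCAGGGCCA
Fmo5 exons 3 to 7: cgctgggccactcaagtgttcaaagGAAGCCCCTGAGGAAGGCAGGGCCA
Fmo5 exons 3 to 8: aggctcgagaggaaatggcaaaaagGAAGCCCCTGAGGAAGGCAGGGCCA
The remaining Fmo5 junction joined the end of exon 8 to the start of exon 2, which begins in the 5′ UTR.

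The exon that opens these Fmo5 circles is shown whole because nearly all of the gene's circular signal carries it. Exon 3 has 189 bases, all coding, at chr3:97635511-97635699, and the capitals mark the stretch that forms the right side of the junctions above.
Fmo5 exon 3: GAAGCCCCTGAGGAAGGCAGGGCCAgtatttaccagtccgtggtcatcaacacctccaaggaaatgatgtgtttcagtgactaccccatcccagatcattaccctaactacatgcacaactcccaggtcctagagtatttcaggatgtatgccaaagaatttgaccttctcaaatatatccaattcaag

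Cyp2j5 is found at chr4:96628773-96664154 (minus strand, ENSMUSG00000052520.7), also with 9 exons. Its 9 junctions fell into separate blocks on either side of intron 4. In the upstream block, 2 junctions lay within exons 2 to 4. In the downstream block, 7 lay within exons 5 to 8 or reached into intron 5, and 5 of these began at exon 5. No junction joined an exon before intron 4 to an exon after it. The sequences of the junctions above 0 in at least 3 libraries are given in the same form, with the start of exon 6 or exon 5 in capitals.
Cyp2j5 exons 6 to 7: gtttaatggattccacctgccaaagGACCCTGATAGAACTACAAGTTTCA
Cyp2j5 exons 6 to 8: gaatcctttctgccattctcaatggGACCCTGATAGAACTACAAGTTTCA
Cyp2j5 exons 5 to 6: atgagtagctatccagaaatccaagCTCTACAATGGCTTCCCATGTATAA
Cyp2j5 exons 5 to 8: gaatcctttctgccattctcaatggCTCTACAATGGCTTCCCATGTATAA
Cyp2j5 exon 5: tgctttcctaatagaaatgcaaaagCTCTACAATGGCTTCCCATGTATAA
The last of these joins the end of exon 5 to its own start. Among the members with both ends on exon boundaries, it is the single junction that spans 1 exon. Its 177 bases, at chr4:96641272-96641448, are shown because 5 junctions open with this exon.
Cyp2j5 exon 5: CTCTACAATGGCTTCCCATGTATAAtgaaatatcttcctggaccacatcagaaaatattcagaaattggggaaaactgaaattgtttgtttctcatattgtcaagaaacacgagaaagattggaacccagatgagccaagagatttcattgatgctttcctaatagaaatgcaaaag

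**Figure D1:**
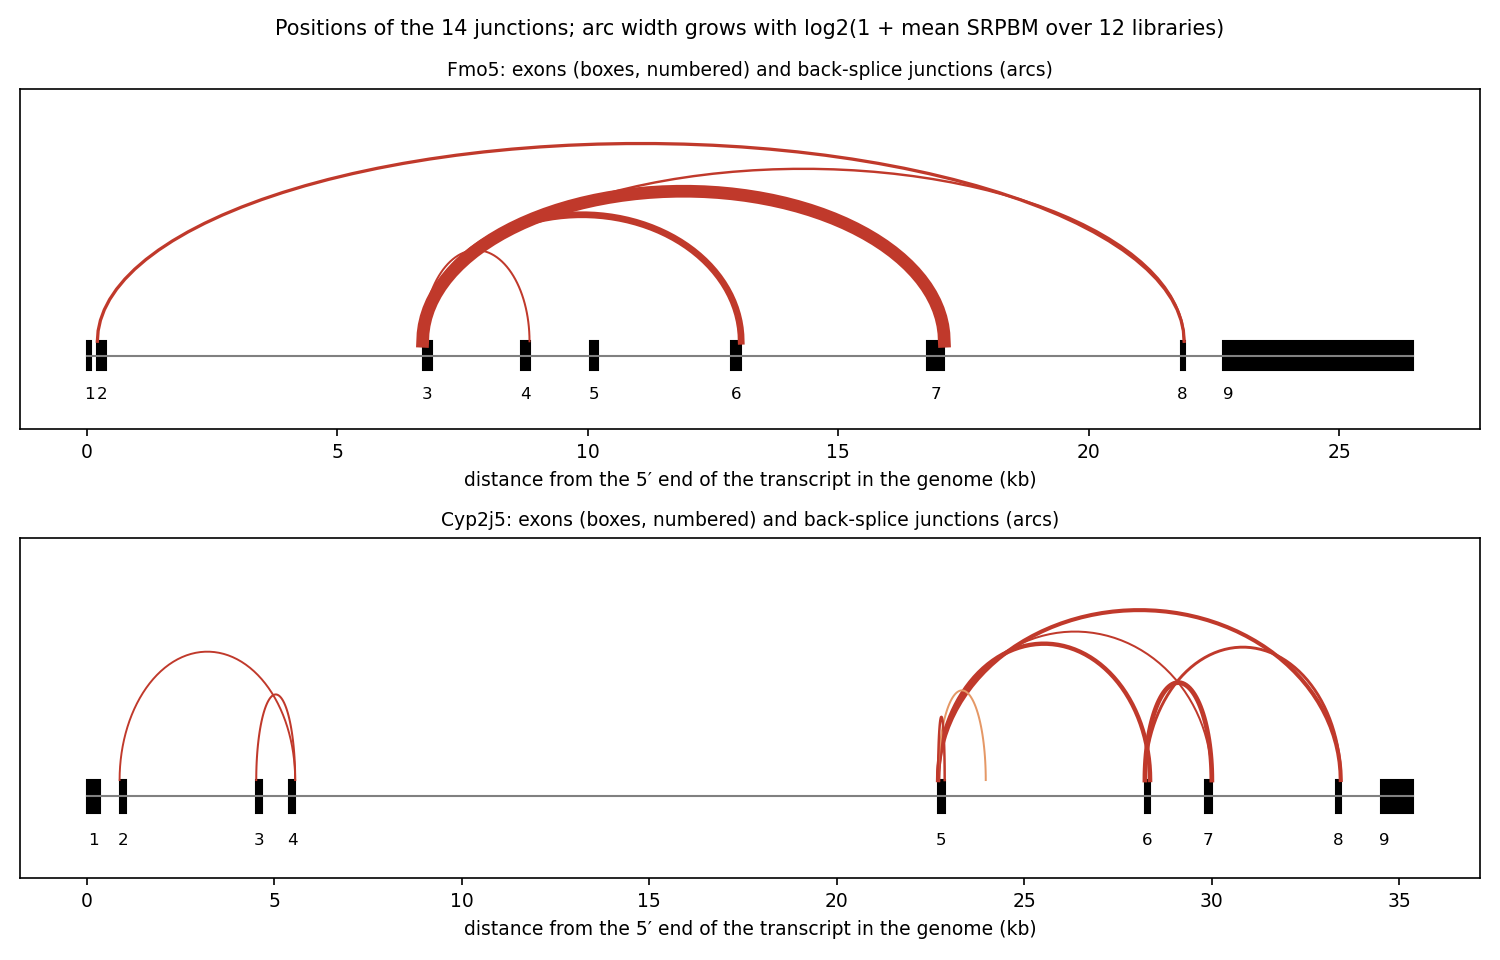
Exons (numbered boxes) and back-splice junctions (arcs) of Fmo5 and Cyp2j5 by distance in kb from the 5′ end of the transcript, with arc width growing with log2(1 + mean SRPBM over 12 libraries). The widest arc joins Fmo5 exons 3 and 7, 4 of 5 Fmo5 arcs share the start of exon 3, and no Cyp2j5 arc crosses intron 4. The pale arc is the junction that reaches into intron 5.

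Relatives of the genes could share reads with these junctions only in part. No transcript of another gene held the 25 bases on either side of an Fmo5 junction, and the nearest stretch in another FMO gene differed at 5 bases or more. For Cyp2j5, the 25 bases at the end of exon 8 were identical in Cyp2j9, a gene of the same subfamily. The start of exon 6 differed from its nearest CYP2 relative, in Cyp2j6, at 5 bases, and the start of exon 5 at 4, in Cyp2j13. The exons 5 to 8 and 6 to 8 junctions therefore have 1 side that does not tell Cyp2j5 from Cyp2j9, and how the authors' caller placed such reads is not given in the sources used here.

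The exons 3 to 7 junction of Fmo5 was the main circle of either gene. It lies at chr3:97635511-97645920, holds 1048 bases of annotated exon, and was above 0 in all 12 libraries with a median of 27.7 SRPBM. By mean level it ranked 209 of the 16445 junctions, and 94.2% of junctions with both ends on exon boundaries had a shorter exonic length. Dividing a value by 0.5 of the smallest value of its library gives what is called a read-pair equivalent here. On this scale the junction rested on 35.7 to 132.8 read-pair equivalents per library. That is the depth behind its values, as far as the table shows depth.

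In PZH livers the exons 3 to 7 circle was at 29.9 SRPBM in the lowest library, 32.2 at the median and 44.2 in the highest, and in Control livers at 12.8, 21.3 and 25.4. The groups did not overlap, and PZH replicate 6 was the highest library. PZH libraries averaged 34.6 ± 5.37 SRPBM, against 20.1 ± 5.51 in Control libraries (SD, n = 6 each). In limma on log2(SRPBM + 0.636) the difference of PZH minus Control was 0.80 with an SE of 0.20 (95% interval 0.38 to 1.21), a 1.74-fold higher level on that scale. Of all tested junctions, 0.491% had all 6 PZH libraries above all 6 Control libraries and 0.181% all below, and of the junctions above 0 in all 12 libraries 0.826% had them all above. Since the gene was picked for this difference, nothing is read from it.

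The second Fmo5 circle, of exons 3 to 6 (chr3:97635511-97641867, 695 exonic bases), was also above 0 in all 12 libraries. It was at 2.77 SRPBM in the lowest PZH library, 3.51 at the median and 10.4 in the highest, and at 1.83, 2.73 and 4.12 in Control. The groups overlapped, and 1 library, PZH replicate 6, stood far above the rest. The log2 difference of PZH minus Control was 0.49 (SE 0.46, 95% interval -0.46 to 1.45), and without PZH replicate 6 it was 0.25. This junction rested on 5.2 to 31.2 read-pair equivalents per library.

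Both circles open with exon 3, and their balance varied between livers. The exons 3 to 7 circle was above the exons 3 to 6 circle in 12 of 12 libraries. Their ratio was 4.26 to 11.4 in PZH (median 8.99) and 4.46 to 11.5 in Control (median 7.22), so the ratio overlapped between the groups. The exons 3 to 7 circle made up 71.6% to 91.9% of the gene's circular signal in PZH and 81.6% to 88.0% in Control. The 71.6% belongs to PZH replicate 6, and the other 5 PZH libraries were at 89.3% or more. The share overlapped between the groups, and nothing is read from it, since the gene was picked for its group difference.

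**Figure D2:**
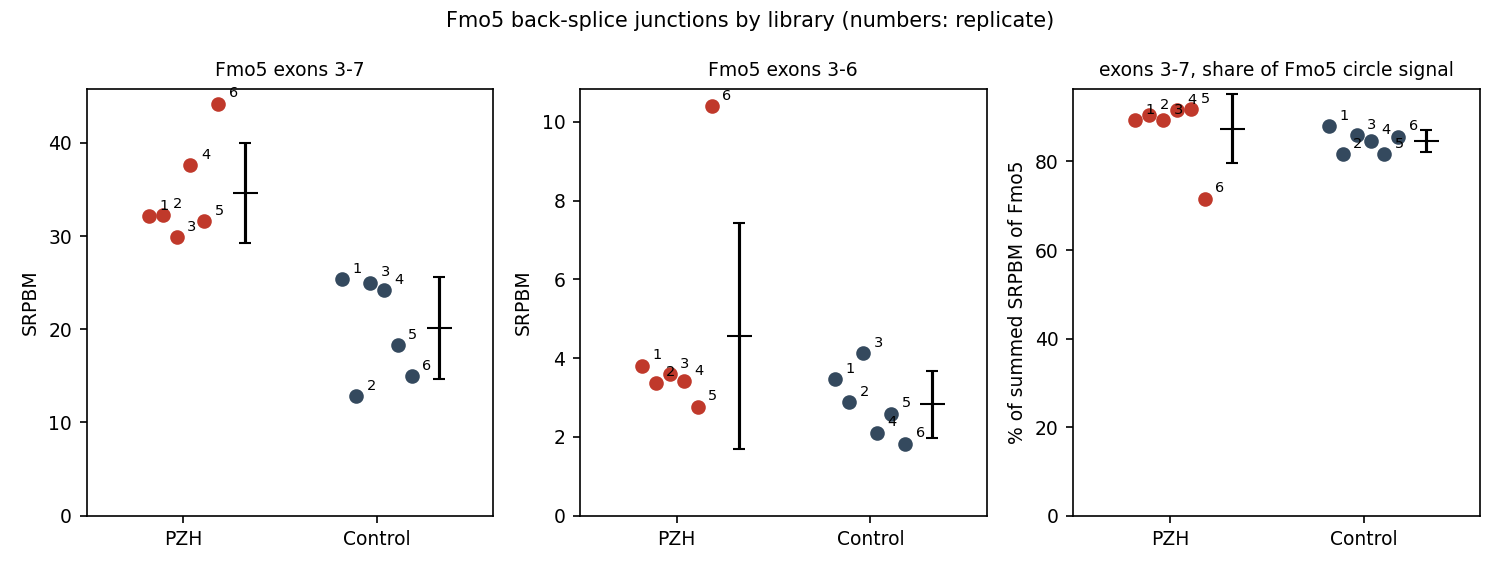
SRPBM of the Fmo5 exons 3 to 7 and exons 3 to 6 junctions, and the share of the first in the summed signal of Fmo5 (%), for each PZH and Control library, with bars for the mean and SD (n = 6 each) and numbers for the replicates. The exons 3 to 7 values are 29.9 to 44.2 in PZH and 12.8 to 25.4 in Control, while the exons 3 to 6 values overlap and PZH replicate 6 stands apart at 10.4.

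The other 3 Fmo5 circles were each above 0 in 2 libraries and were not tested. The exons 2 to 8 junction was at 5.14 SRPBM in PZH replicate 6 and 2.26 in Control replicate 4. It is the longest of the members in annotated exon, with 1298 bases, and the only one that holds the start codon. The exons 3 to 8 junction was at 2.04 SRPBM in PZH replicate 6 and 0.965 in Control replicate 5. The exons 3 to 4 junction was listed at 0 in all 6 PZH libraries and was at 0.584 and 0.707 SRPBM in Control replicates 5 and 6, each at 2.0 read-pair equivalents, the smallest value those libraries list. Fmo5 held 4 circles above 0 in PZH replicate 6 and 2 in each of the other PZH libraries, against 2 to 4 in Control. A further row inside Fmo5 had neither end on an exon boundary and is not a member; it was at 1.26 SRPBM in Control replicate 1 and listed at 0 elsewhere.

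Summed over its members, Fmo5 gave 33.5 SRPBM in the lowest PZH library, 35.8 at the median and 61.8 in the highest, and 15.7, 25.5 and 29.1 in Control. The groups did not overlap. PZH sums averaged 40.4 ± 10.8 and Control sums 23.7 ± 6.07 (SD, n = 6 each). In limma on host gene sums, which also hold the row off the exon boundaries, the log2 difference was 0.75 (SE 0.21). Of the 2204 host gene sums tested, 0.499% had all PZH above all Control libraries and 0.318% all below.

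Cyp2j5 circles were scarcer than those of Fmo5. Their sum was 0 to 6.01 SRPBM in PZH (median 2.70) and 3.29 to 10.7 in Control (median 6.80). The groups overlapped. All 9 junctions were listed at 0 in PZH replicates 1 and 4, which held 92559 and 111468 read-pair equivalents over all circles, and no Control library was at 0. An entry of 0 means that the authors' table lists no signal, which at a few reads per junction is not absence. The log2 difference of the host gene sums was -1.69 (SE 0.68, 95% interval -3.11 to -0.27), with the same limit as for Fmo5.

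The circle of exons 6 to 7 of Cyp2j5 (chr4:96634148-96635932, 327 exonic bases) was the one above 0 in most libraries. In PZH livers it was at 1.83 and 1.48 SRPBM in replicates 2 and 3 and listed at 0 in the other 4 libraries. In Control livers it was at 3.29, 4.24, 1.45, 3.57 and 2.82 in replicates 2 to 6 and listed at 0 in replicate 1. The ranges overlapped, and where above 0 the values stood for 4.4 to 13.5 read-pair equivalents. The log2 difference of PZH minus Control was -1.46 (SE 0.65, 95% interval -2.81 to -0.11).

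The next circles began at exon 5. The exons 5 to 6 circle was at 2.44 and 2.19 SRPBM in PZH replicates 2 and 6, and at 6.34, 1.63 and 2.66 in Control replicates 1, 3 and 4. That of exons 5 to 8 was at 3.56 in PZH replicate 3, and at 0.947, 5.20 and 3.18 in Control replicates 1, 4 and 6. Control replicate 1, the Control library without the exons 6 to 7 circle, had the highest exons 5 to 6 value.

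The single-exon circle of exon 5 was at 0.964 and 1.67 SRPBM in PZH replicates 3 and 6 and at 0.789 in Control replicate 1. That of exons 6 to 8 was at 1.54 in PZH replicate 5 and at 3.22 and 0.707 in Control replicates 5 and 6. The remaining 4 junctions were each above 0 in 1 library. The junction from exon 5 into intron 5, whose far end lies 1095 bases beyond exon 5, was at 1.22 SRPBM in PZH replicate 2. That of exons 5 to 7 was at 1.26 in Control replicate 1, that of exons 3 to 4 at 1.38 in Control replicate 4, and that of exons 2 to 4 at 0.943 in Control replicate 3.

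**Figure D3:**
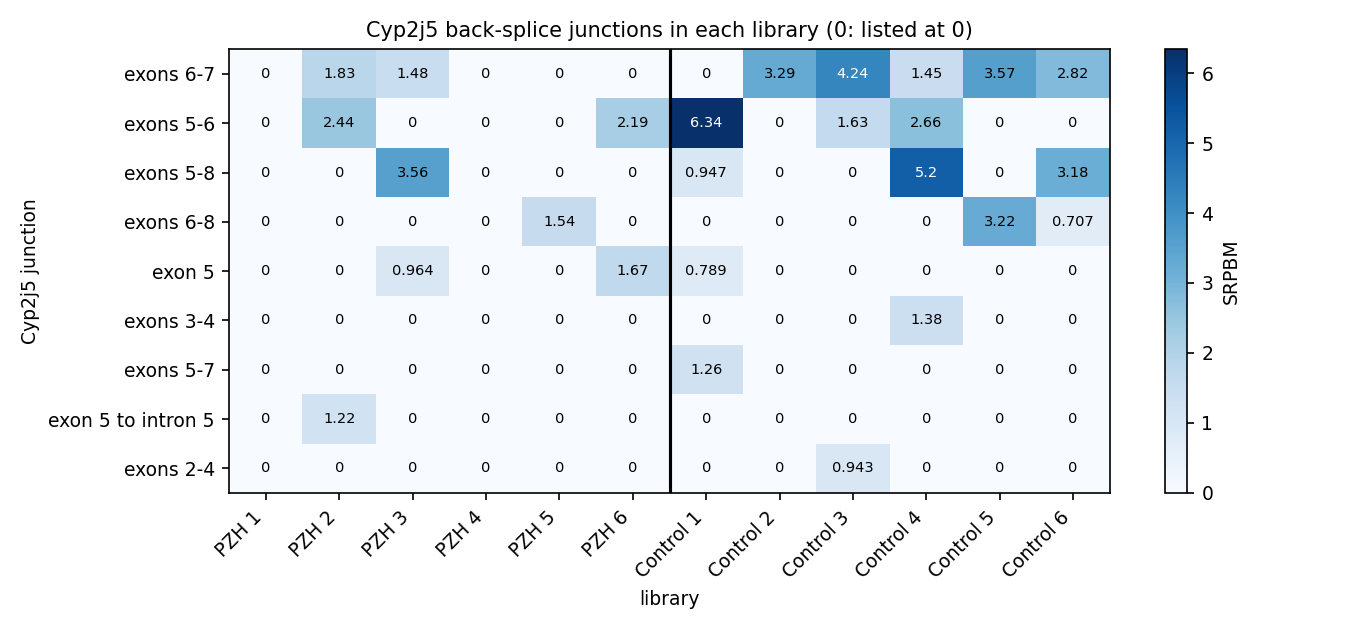
SRPBM of the 9 Cyp2j5 junctions (rows) in the 6 PZH and 6 Control libraries (columns), with 0 for entries listed at 0. PZH replicates 1 and 4 are at 0 in every row, and the exons 6 to 7 junction is above 0 in 2 PZH and 5 Control libraries.

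The order of the levels was firm at the top in Fmo5, where the exons 3 to 7 circle led in every library, and not in Cyp2j5. In Fmo5 the exons 3 to 6 circle was above the exons 2 to 8 circle in 11 of 12 libraries, the exception being Control replicate 4. The exons 2 to 8, 3 to 8 and 3 to 4 circles, each at 0 in 10 libraries, did not differ beyond their spread. In Cyp2j5 the exons 6 to 7 circle was above the exons 5 to 6 circle in 5 libraries, below it in 4 and tied at 0 in 3, and the circles further down were mostly tied at 0.

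In the fit over all 3870 junctions above 0 in at least 6 of 12 libraries, 3 of the 14 members could be tested, both main Fmo5 circles and the Cyp2j5 circle of exons 6 to 7. None passed an adjusted p of 0.05 in limma, where 0.0517% of all tested junctions did (2 higher in PZH and 0 lower). At an unadjusted p under 0.05 stood 2 of the 3, against 7.55% of all tested junctions. They were Fmo5 exons 3 to 7, on the higher side with 4.55% of all, and Cyp2j5 exons 6 to 7, on the lower side with 3%. Neither host gene sum passed, and 0 of 2204 did, although both had an unadjusted p under 0.05 in limma, as did 8.12% of all sums (5.04% higher and 3.09% lower). When only the 1089 junctions above 0 in all 12 libraries were tested, Fmo5 exons 3 to 7 passed in limma, as did 0.918% of those 1089 (8 higher, or 0.735%, and 2 lower). Nothing is read from these counts, since the contrast chose the genes.

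The summed circular signal varied between libraries. They summed to 31472 to 41080 SRPBM in PZH and 28922 to 40927 in Control, or 92559 to 129699 and 80442 to 130487 read-pair equivalents. Relative to these sums, the exons 3 to 7 circle took 783 to 1090 parts in 1000000 in PZH and 443 to 711 in Control. Those ranges did not overlap, as for 0.491% of tested junctions higher on this scale, and nothing is read from them, since they are the same values rescaled. PZH replicate 6 had the highest sum of the PZH libraries, and Control replicates 2 and 6, the lowest for this circle, had the lowest sums of all.

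Marker genes of liver cell types were counted through their own circles. Hepatocyte marker genes had circles for 11 of 16 genes, including Alb and Apob, with sums of 15.2 to 37.0 SRPBM in PZH and 16.8 to 41.4 in Control. Pericentral markers (6 of 12 genes) gave 42.5 to 58.2 and 22.0 to 57.2, and periportal markers (6 of 11) 48.2 to 84.2 and 55.4 to 99.0. Most of the pericentral sums came from Slco1b2 (35.8 to 51.1 in PZH and 17.1 to 45.5 in Control), followed by Cyp1a2. Most of the periportal sums came from Gls2 (41.8 to 73.9 in PZH and 42.1 to 87.6 in Control). Stellate cell and fibroblast markers (Reln and Hgf, 2 of 13) gave 4.12 to 13.7 in PZH and 0 to 3.57 in Control, and the defining genes Lrat, Des, Col1a1 and Acta2 had no circle in the table. Of this list, Reln did not overlap between the groups (4.12 to 11.7 in PZH and 0 to 3.32 in Control), beside the 0.499% of host gene sums above, while Hgf overlapped, and the 1 tested junction, of Reln, did not pass in limma. Macrophage markers (3 of 10) gave 40.6 to 65.7 and 34.0 to 54.1, endothelial markers (6 of 10) 3.14 to 12.4 and 0 to 11.2, cholangiocyte markers (1 of 7) 3.88 to 12.5 and 0.877 to 14.7, and lymphocyte markers (1 of 8) 0 and 0 to 2.52. The macrophage sums were nearly all Adgre1 (40.6 to 65.7 in PZH and 34.0 to 52.4 in Control). Csf1r and Marco were listed at 0 in all 6 PZH libraries and reached 0.766 and 0.945 in Control. The hepatocyte and periportal lists share Ass1, Cps1 and Pck1. In bulk liver, fewer cells of a type and less RNA per cell cannot be told apart, and the part of these markers in the Fmo5 and Cyp2j5 values was not tested.

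The main Fmo5 circle lay between the 2 longest introns of its gene. The intron before exon 3 has 6315 bases and is the longest of the gene, and the intron after exon 7 has 4714 and is the second longest. Across hosts with a 9-exon transcript, the most abundant circle lay between the 2 longest introns in 65 of 282 (23.0%), and over all hosts in 19.3%. The intron before exon 5 of Cyp2j5 has 17143 bases, the longest of that gene, and 5 of its 9 junctions start directly after it. So did 32.8% of junctions of 9-exon transcripts and 22.6% of all junctions with an intron on both sides, each after its own longest intron. None of these 5 was above 0 in more than 5 libraries. The most abundant Cyp2j5 circle, of exons 6 to 7, has introns of 5339 and 3298 bases on its sides, which rank 2 and 4 in length. Among most abundant circles with an intron on both sides, the median intron was 5326 bases upstream and 4224 downstream. For hosts with a 9-exon transcript these medians were 6680 and 3845 bases, so the intron before Fmo5 exon 3 was below the median of that class. Only junctions were measured, so which internal exons each circle holds is not known.

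The exons between the junction ends encode the middle of each enzyme. Fmo5 exons 3 to 7 span codons 46 to 395 of 533 and exons 3 to 6 codons 46 to 277. Of the glycine-rich nucleotide-binding motifs of FMO5, the first, which binds FAD, starts at residue 10 in exon 2 and so lies outside these ends. The second, in the NADPH-binding part, starts at residue 192 in exon 5, between the ends of both. In CYP2J5 the cysteine that holds the haem iron is residue 447 of 501, in exon 9. As the last exon it has no donor for a back-splice, and no circle reached it. The exonic length was a multiple of 3 in 4 of the 13 members with both ends on exon boundaries. These were Cyp2j5 exons 6 to 7, 5 to 7, 2 to 4 and exon 5 alone, and both main Fmo5 circles were not among them.

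Few relatives of either gene gave circles. Of 7 FMO genes, Fmo5 and Fmo1 had any, and the Fmo1 circle, of exons 3 to 4, was at 1.67 SRPBM in 1 PZH library. It began at exon 3, as 4 of 5 Fmo5 circles did. Of 61 genes of CYP families 1 to 3, 12 had circles, 7 of them in the CYP2 family. Of these 7, 4 had a circle that began at exon 5: Cyp2j5, Cyp2b9, Cyp2c70 and Cyp2e1. That of Cyp2e1 was above 0 in 1 library. Those of Cyp2c70 averaged 0.717 SRPBM or less in either group, well below its circles that began at exon 4. Cyp2c70, a bile acid hydroxylase of mouse liver, had the strongest circles of the CYP2 genes, summing to 35.2 ± 11.7 SRPBM in PZH livers, against 27.4 ± 6.12 in Control livers (SD, n = 6 each). Its most abundant one, of exons 4 to 7, averaged 14.7 ± 4.01 in PZH and 13.5 ± 3.55 in Control.

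**Figure D4:**
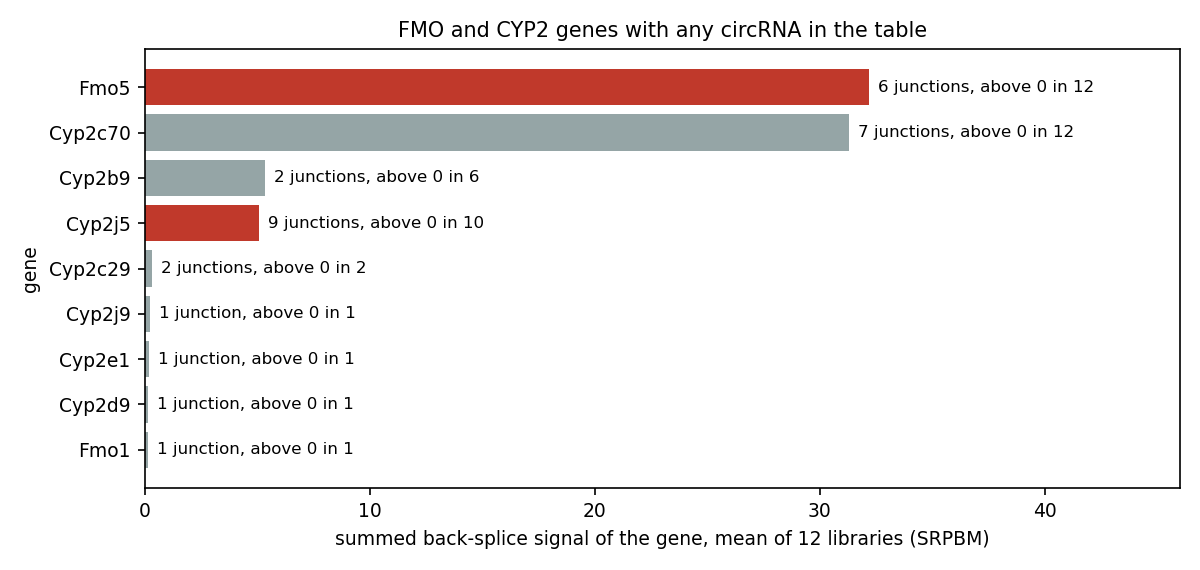
Summed back-splice signal (SRPBM, mean of 12 libraries) of each FMO and CYP2 gene with a circle, with the number of junctions and of libraries above 0; the 6 of Fmo5 include the row off its exon boundaries. Fmo5 (32.2) and Cyp2c70 (31.3) stand above the rest, and Cyp2j5 (5.04) has the most junctions.

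Other genes of drug oxidation, taken from lists by function, gave no call. Of the 11 tested circles of CYP families 1 to 3, 7 were positive and 4 negative, that of Cyp2j5 among them, with a median log2 difference of 0.06, beside 2100 positive and 1770 negative and the same median of 0.06 over all tested junctions. The positive one with the smallest p came from Cyp1a2, an enzyme of the pericentral zone, at 6.39 to 18.8 SRPBM in PZH and 0 to 11.7 in Control (log2 difference 1.06, SE 0.57). The single tested circle of CYP family 4, from Cyp4f14, averaged 44.3 ± 9.73 in PZH and 44.6 ± 11.9 in Control. Of the 18 genes of other CYP families, Cyp7b1 alone had a circle, and it was not tested.

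None of 9 genes for electron donors, among them Por and the cytochrome b5 genes, had a circle. Of 12 genes before and after the epoxygenases, 3 had circles and neither epoxide hydrolase Ephx1 nor Ephx2 was among them; the 1 tested circle, of Acsl1, had a log2 difference of -0.22. Of other oxidation and hydrolysis enzymes, 12 of 28 had circles, and of the 21 tested 13 were positive and 8 negative (median 0.16). Of these 21, 14 were junctions of Dpyd, and the rest came from Aox3, Ces1c, Xdh and Maob. The split is therefore mostly that of 1 gene. The positive one with the smallest p, of Dpyd, which starts pyrimidine breakdown, was at 1.34 to 7.0 SRPBM in PZH and 0 to 3.79 in Control. The groups overlapped (log2 difference 1.33, SE 0.7). Of conjugation enzymes, 8 of 73 had circles, with 1 of the 2 tested positive. Of transcription regulators of drug metabolism, 8 of 16 had circles, and 3 of the 7 tested were positive and 4 negative (median -0.32). Of these 7, 5 were junctions of Nr1h4, which held all the positive ones and some negative ones. The others came from Arnt and Ppara. None of the tested circles of these lists passed in limma.

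The junctions whose levels followed the main Fmo5 circle most closely came from hosts outside drug oxidation. Among 1087 junctions of other genes above 0 in all 12 libraries, the likest was that of exons 5 to 8 of Dtnb, which encodes beta-dystrobrevin, with Pearson r of 0.92 and Spearman rho of 0.93 over 12 libraries of log2(SRPBM + 0.636). Without the 2 libraries farthest from the median r was 0.79, and within the groups, after each group's mean was taken off, also 0.79. A circle of exons 2 to 5 of Ankib1 followed with r of 0.89 (rho 0.66, 0.89 within groups), and one of exons 2 to 3 of Arhgap12 with 0.88 (rho 0.76, 0.82 within groups). Without the 2 farthest libraries, r was 0.68 for Ankib1 and 0.73 for Arhgap12. For the Cyp2j5 circle of exons 6 to 7, with 5 of 12 values at 0, circles of exons 2 to 3 of Dgkd (r 0.78, rho 0.76, 0.70 within groups) and of exons 6 to 7 of Nmd3 (r 0.76, rho 0.79, 0.60 within groups) were among the likest of 1089. These are among the highest of many values from 12 libraries that share a depth and a group difference, so they are a description.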

How the data were processed

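Per the labels' protocols, liver RNA of 6 PZH and 6 Control mice was extracted with Trizol, and libraries were made with a TruSeq RNA kit. The authors deposited a signal in SRPBM per junction, with 1 column per mouse. Trim Galore and STAR were used with GRCm38, per the submitters' processing notes. Not given in the sources used here are their versions, the circRNA caller with its filters, and how SRPBM was computed. Where 1 step is 0.5 of a library's smallest value, only 56.8% to 63.8% of its values up to 8.5 steps were near a whole step (up to 0.1 above or 0.05 below), so whole reads could not be recovered and no count model was used. Libraries held 80442 to 130487 read-pair equivalents (steps), and for the low Cyp2j5 junctions this number limits the precision.

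Hosts were assigned from GENCODE M21, on the same build: 15737 of 16445 junctions (95.7%) had both ends on exon boundaries of a gene. Transcript sequences are those of GENCODE M21, read with Python 3.11.15 and biopython 1.88. The test took junctions with a value above 0 in 6 or more of the 12 libraries, on log2(SRPBM + 0.636), the pseudocount being the median of the libraries' smallest values, with limma 3.58.1 in R 4.3.3 (variance trend, 2-sided, Benjamini-Hochberg over all junctions, threshold 0.05). The fit was tested on simulated data. Alternatives were other pseudocounts, filters and scalings, a replicate block, no variance trend and leaving out each library. The members and lists were chosen with earlier results of these data known. All members are reported. Likeness was ranked by Pearson r for the member of each gene with the highest median. Of the junctions this ranking named, 1 is not reported here.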

Additional observations from a re-analysis of the deposited data

Results flagged for a closer look

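In 3 of 14 groups of 6 values examined, 1 library lay far from the others for the group's range, and chance sets apart about 1 in 20 groups. All 3 come from PZH replicate 6 and are not independent. Its Fmo5 exons 3 to 6 value was 10.4 SRPBM, where the next PZH library had 3.81. Its Fmo5 sum was 61.8 SRPBM, where the next had 41.0. Its share of exons 3 to 7 in the Fmo5 signal was 71.6%, where the next lowest PZH library had 89.3%. It was also the single PZH library with the exons 2 to 8 and exons 3 to 8 junctions above 0. Without it, the log2 difference of PZH minus Control was 0.72 for the exons 3 to 7 junction and 0.62 for the host gene sum.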

How the results depend on the processing

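The direction of all 5 tested quantities (3 junctions and 2 host gene sums) was the same under every alternative that could be run. For Fmo5 exons 3 to 7 the log2 difference of PZH minus Control was 0.68 to 0.87, and 1 of 21 alternatives brought it past the threshold, the filter that kept junctions above 0 in all 12 libraries (1089 tested). The others stayed above the threshold: Fmo5 exons 3 to 6 at 0.25 to 0.59, Cyp2j5 exons 6 to 7 at -2.71 to -0.43, the Fmo5 sum at 0.62 to 0.82 and the Cyp2j5 sum at -2.60 to -0.70, with the extremes for Cyp2j5 under pseudocounts of 0.1 and 5. The filter on all 12 libraries could not be run for Cyp2j5. The number of junctions called higher, 2, was 19 with no filter, 8 above 0 in all 12 libraries, 1 with the replicate block and 1 without any 1 library. The number called lower, 0, was 2 with a pseudocount of 5, 11 with no filter, 2 above 0 in all 12 libraries and 0 to 2 without 1 library. Host gene sums called higher, 0, were 1 with a pseudocount of 5, 3 with no filter, 1 above 0 in all 12 libraries, 1 with either scaling, 1 with the replicate block and 0 to 1 without 1 library. Those called lower, 0, were 1 with a pseudocount of 5, 3 with no filter, 1 with the replicate block and 0 to 3 without 1 library. The cause was not tested. Same-numbered libraries correlated in their deviations at -0.122 to 0.0299, and 0 of 6 PZH libraries correlated best with its own number. The titles do not say that the numbers pair mice, and 6 such correlations are too few to settle it. With the number as a replicate block the difference for Fmo5 exons 3 to 7 was 0.80. Depth limits the Cyp2j5 values: no single junction exceeded 20.2 read-pair equivalents in a library, and exons 6 to 7 reached 13.5.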
